A study of Mus musculus with 6 samples.

Results

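The genes described here are 10 that encode endothelial surface lectins, the extracellular matrix glycoproteins of the EMILIN and multimerin family, and a few further proteins of the endothelial surface and matrix: Cd93, Clec14a, Cd248, Mmrn1, Mmrn2, Emilin1, Emilin2, Emcn, Egfl7 and Ecscr. They were taken by gene, through the RefSeq accession that the array file gives for each probe. The list was drawn up with earlier results of these data known, so the counts below are not those of a blindly chosen set. All 10 had a probe, 11 probes in all since Ecscr had 2, among 56605 probes other than controls and 22911 named genes. A gene was tested where a probe of it exceeded background clearly on the 3 arrays of either population. All 10 were, among 14971 genes. Emilin2 met that condition through the blood vascular arrays alone.

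Endothelial cells were isolated from the small intestine of female mice and measured on 6 one-color Agilent arrays. Vascular endothelial cells (VECs), which line blood vessels, were sorted as CD45-negative, CD31-positive, CD90-negative cells, and lymphatic endothelial cells (LECs), which line lymphatic vessels, as CD45-negative, CD31-positive, CD90-positive cells. Each population had 3 samples, VEC 2, 3 and 4 and LEC 6, 7 and 8, from at most 10000 sorted cells each, and no sample was given a treatment in the labels. The strain and age of these mice and whether the samples came from separate mice were not given in the sources used here, so p-values measure only the spread between these samples, which may be technical. Titles and source names set the grouping, since the LEC samples carry a description that speaks of VECs.

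CD93, CLEC14A and CD248 belong, with thrombomodulin, to the group XIV C-type lectins, single-pass receptors whose lectin-like ectodomains hold endothelial cells and pericytes to the matrix during vessel growth. Multimerin-2, a matrix protein deposited by endothelium, is a known ligand that all of these receptors other than thrombomodulin can bind. Multimerins and EMILINs share an N-terminal EMI domain and a C-terminal C1q-like domain and assemble into large multimers, and multimerin-1 and EMILIN1 have been tied to lymphatic vessels in particular.

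Signals are given as intensity units after the scanner software's background subtraction, and differences as LEC minus VEC on a log2 scale after each array's 75th percentile was subtracted. A gene passed if the adjusted p of limma's moderated test was under 0.05 over all tested probes. The 75th percentile lay between 333 and 441 intensity units, and the lowest signal well above background between 12.1 and 25.1, so that a value near the latter is close to the floor of its array. Endothelial identity was checked first. Pecam1, which encodes the sort marker CD31, was well above background on all 6 arrays and was 2.68-fold lower in LECs (adjusted p = 7.5e-05), Prox1, the lymphatic master regulator, was 41.3-fold higher, and Flt1, a VEGF receptor of blood vessels, was 59.0-fold lower. All 5 lymphatic markers were higher in LECs and 4 of 5 blood vascular markers were lower, the exception being Aqp1, which was 6.56-fold higher. The lymphatic marker Pdpn was tested through its LEC signal alone. Erythroid markers had a summed normalized signal of 14.3 to 35.3 on VEC and 0.367 to 1.99 on LEC arrays, and epithelial markers one of 0.806 to 1.34 and 0.958 to 1.07. All 3 tested erythroid markers were lower in LECs, where 32.0% of all genes were, but Alas2 and Hbb-bt were tested through their VEC signal alone. Of 3 tested epithelial markers, Fabp2 was 5.43-fold higher in LECs (adjusted p = 6.1e-05), Vil1 was 4.17-fold lower (adjusted p = 7.3e-04) and Krt8 did not pass. The part of such cells in the differences below was not tested. In sorted bulk samples, a lower signal cannot tell fewer expressing cells from less RNA per cell.

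Promoter sequences were looked up in the RefSeq table of GRCm38.p6, which held a window for 6 of the 10 genes (9 windows, since Egfl7 had 3 and Emilin2 had 2). The 4 below are shown because they cover the patterns that the signals take: a gene higher in LECs (Mmrn1), a gene lower in LECs (Clec14a), a gene with a small difference (Emcn) and a gene that did not pass (Egfl7). Each is the 250 bases before the annotated start, read 5′ to 3′ on the gene's strand, and capitals mark GGAA and its reverse complement TTCC, the core recognised by ETS transcription factors, a family with well-known roles at endothelial genes. The windows lie at chr6:60944067-60944316, plus strand (Mmrn1), chr12:58269259-58269508, minus strand (Clec14a), chr3:137340828-137341077, plus strand (Emcn), and chr2:26580833-26581082, plus strand (the first of the Egfl7 starts).
Mmrn1: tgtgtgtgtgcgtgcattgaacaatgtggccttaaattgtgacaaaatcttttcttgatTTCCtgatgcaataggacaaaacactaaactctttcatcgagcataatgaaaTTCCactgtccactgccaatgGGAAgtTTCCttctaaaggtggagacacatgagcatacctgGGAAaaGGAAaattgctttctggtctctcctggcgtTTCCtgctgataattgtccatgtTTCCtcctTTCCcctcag
Clec14a: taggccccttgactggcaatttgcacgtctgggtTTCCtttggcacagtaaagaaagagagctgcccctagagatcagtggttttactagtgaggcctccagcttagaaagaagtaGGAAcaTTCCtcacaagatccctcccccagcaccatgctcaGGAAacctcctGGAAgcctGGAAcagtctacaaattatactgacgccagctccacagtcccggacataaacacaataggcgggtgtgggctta
Emcn: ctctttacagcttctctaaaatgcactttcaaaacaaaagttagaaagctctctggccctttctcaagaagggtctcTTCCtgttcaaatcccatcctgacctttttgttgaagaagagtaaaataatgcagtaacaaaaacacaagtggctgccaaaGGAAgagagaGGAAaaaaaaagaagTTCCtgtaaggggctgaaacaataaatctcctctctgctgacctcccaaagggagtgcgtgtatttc
Egfl7: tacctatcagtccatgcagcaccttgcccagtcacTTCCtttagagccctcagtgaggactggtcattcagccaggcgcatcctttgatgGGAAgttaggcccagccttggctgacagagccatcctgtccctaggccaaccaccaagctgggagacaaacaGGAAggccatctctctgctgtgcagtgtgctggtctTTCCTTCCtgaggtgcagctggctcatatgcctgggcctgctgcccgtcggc

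The core occurred 9 times before the Mmrn1 start, 6 times before Clec14a, 5 times before Egfl7 and 4 times before Emcn, where the median over 32851 windows was 3 and the 95th percentile was 6. In the windows not shown it occurred 8 times and 1 time before the Emilin2 starts, 5 times before Emilin1, and 3 times and 1 time before the other Egfl7 starts. A GGAA or TTCC was present in 96% of all windows of 300 bases, so its presence sets no gene apart. The longer ETS motif CAGGAAG, searched on both strands, is found in 13.3% of all windows. It occurred 2 times in the Egfl7 window shown and 1 time each in the window of a second Egfl7 start, in Emcn and in Emilin1, and it was not in the Mmrn1 or Clec14a window. The motif CCGGAAG (8.86% of all windows) occurred in 1 Emilin2 window, while the GATA motif AGATAAG (3.04%) and the E-box CACGTG (7.15%), searched for comparison, were in none of the 9. These matches describe letters only, and the arrays measured no binding.

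Among the 10 genes, 3 were higher in LECs, where 34.9% of all 14971 genes were, and 6 were lower, where 32.0% of all genes were. The remaining gene, Egfl7, did not pass. With a measured difference of more than 5-fold required as well, 2 of the 10 were over 5-fold higher (Mmrn1 and Emilin1), where 4.68% of all genes were, and 4 were over 5-fold lower (Cd93, Cd248, Clec14a and Emilin2), where 5.19% of all genes were. Of these, Emilin2 was tested through its VEC signal alone and did not stay over 5-fold under all other processing, as given below. The median difference of the 10 was -0.54, and that of all genes tested was 0.02. Normalized signals of VEC and LEC arrays did not overlap for any of the 11 probes, not even for Egfl7, which did not pass. The share of all probes without such overlap was not counted, so this does not set these genes apart.

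**Figure D1:**
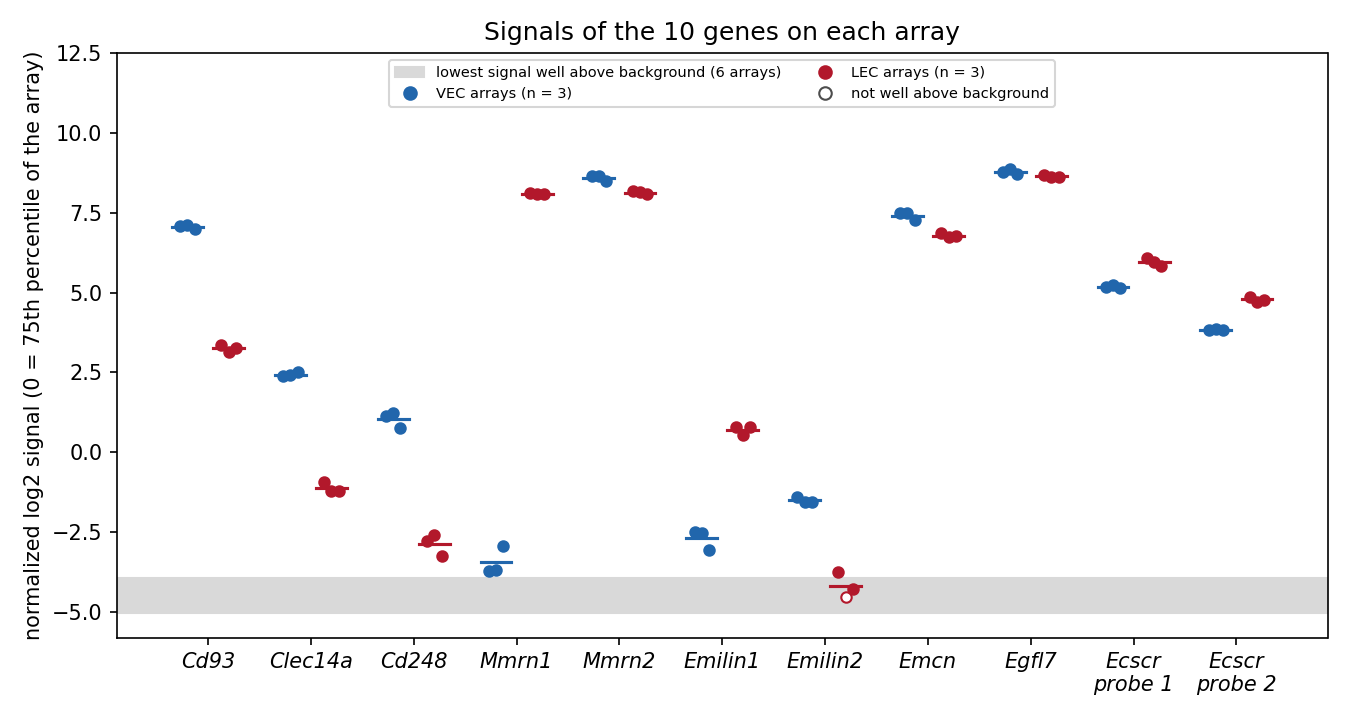
Normalized log2 signal of each of the 11 probes on the 6 arrays (y axis, 0 is the array's 75th percentile), with VEC arrays in blue, LEC arrays in red, a line at each mean of 3 arrays, an open symbol for the 1 spot not well above background, and a grey band from the lowest to the highest of the 6 arrays' lowest signals well above background. Mmrn1 runs from -3.45 in VECs to 8.09 in LECs on average, whereas Mmrn2, Emcn and Egfl7 are bright in both populations, and heights may be compared within a probe only.

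The lectin receptors were all lower in LECs, by 11.7-fold to 14.9-fold for the 3 that bind multimerin-2. Cd93 encodes a receptor of endothelial, myeloid and stem cells that takes part in endothelial adhesion and sprouting. Its signal was 49297, 45800 and 47404 on VEC arrays 2, 3 and 4 against 4464, 3367 and 4223 on LEC arrays 6, 7 and 8, the order kept in all such values that follow. Every VEC array thus far exceeded every LEC array, and yet all LEC arrays stayed far above background. The difference was -3.80 (SE 0.08, n = 3 per population; 13.9-fold, adjusted p = 8.2e-07 by limma), and 284 of 14971 genes fell further toward LECs. Cd93 is also expressed by myeloid cells. Of 9 tested myeloid markers 6 were higher in LECs and 2 lower, where 34.9% and 32.0% of all genes were. Those higher included Aif1 (7.20-fold), C1qb and C1qc, and also Adgre1, C1qa and Lyz2, which were tested through their LEC signal alone. Those lower were Cd68 (2.23-fold, adjusted p = 7.3e-05 by limma) and Itgam, and Csf1r did not pass. The summed normalized signal of the list was 78.3 to 83.9 on VEC arrays and 69.3 to 74.6 on LEC arrays. Most of it came from the brighter probe of the integrin gene Itgam (1.16-fold lower), and without Itgam it was 3.97 to 4.33 and 5.03 to 5.61. The other Itgam probe gave only 22.9 to 29.5 intensity units on VEC and 20.0 to 29.2 on LEC arrays and did not pass (adjusted p = 0.092). The probes of that gene thus disagree in level, and the bright one may not measure Itgam. The part of myeloid cells in the Cd93 signal was not tested.

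Clec14a encodes a receptor that is found mainly on endothelium and acts in sprouting and cell-cell contact. It gave 1884, 1765 and 2134 intensity units in VECs against 226, 166 and 191 in LECs. The populations lay well apart, with LEC 6 the highest of the LEC arrays on both scales. The difference was -3.54 (SE 0.10, n = 3; 11.7-fold, adjusted p = 1.7e-06 by limma).

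Cd248 encodes endosialin, best known from pericytes and stromal fibroblasts rather than from endothelium. Its signal was 792, 779 and 635 in VECs against 63.1, 63.8 and 46.9 in LECs. The groups did not overlap, and the LEC signals, though low, were above background on all 3 arrays. The difference was -3.90 (SE 0.20, n = 3; 14.9-fold, adjusted p = 2.0e-05 by limma), with a wider spread than that of Cd93. With normexp correction it was -2.97, smaller than the differences of Cd93 and Clec14a there (-3.76 and -3.11). Among 8 pericyte and smooth muscle markers 7 had a difference below 0 and 3 of these passed, where 32.0% of all genes were lower in LECs. Those 3 were the pericyte proteoglycan Cspg4 (-0.48, adjusted p = 0.015) and the smooth muscle genes Acta2 (-0.51) and Myh11 (-0.60). The marker above 0, Rgs5 (0.21, adjusted p = 0.58 by limma), did not pass. The pericyte receptor Pdgfrb did not pass (-0.15, adjusted p = 0.31). Their summed normalized signal was 43.0 to 50.8 on VEC and 29.9 to 39.2 on LEC arrays. Of 4 tested fibroblast markers 3 were higher in LECs, where 34.9% of all genes were. The part of such cells in the Cd248 signal was not tested.

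Thbd, which encodes thrombomodulin, the anticoagulant receptor of this lectin group that is not known to bind multimerin-2, fell too. Its normalized log2 signal was 6.27, 6.28 and 6.18 in VECs and 4.39, 4.59 and 4.44 in LECs, a 3.40-fold lower value (adjusted p = 9.8e-06 by limma). All 4 genes of the group were therefore lower in LECs, where 32.0% of all genes were, with a median difference of -3.67. Whether Thbd differed from the other 3 in size of change was not tested.

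The multimerins parted. Mmrn1 encodes multimerin-1, a factor V-binding protein stored in platelets and endothelial cells. It gave 27.5, 25.9 and 49.1 intensity units in VECs against 120902, 102578 and 119076 in LECs. The VEC signals were low, though all 3 were above background, where the lowest signal well above background on those arrays was 12.1 to 14.2. The LEC signals lay far above the 75th percentile of their arrays. The difference was 11.54 (SE 0.22, n = 3; 95% confidence interval 11.01 to 12.07; 2976-fold, adjusted p = 5.8e-07 by limma), and 1 of 14971 genes was raised further in LECs. With normexp background correction the difference was 10.03, a smaller fold in the same direction. Multimerin-1 is also a platelet protein. Of 6 platelet and megakaryocyte markers only Pf4, which encodes a platelet chemokine, was tested and it was 3.21-fold higher in LECs (adjusted p = 3.9e-04), the summed normalized signal of the list was 0.225 to 0.281 on VEC and 0.471 to 0.516 on LEC arrays, and of the other 5, Gp1ba and Gp9 were above background on no array and Gp6, Itga2b and Ppbp on 1 VEC array each. The Pf4 difference was 0.92 with normexp in place of 1.68. The part of platelets in the Mmrn1 difference was not tested.

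Mmrn2, the shared ligand of the lectin receptors, was slightly lower in LECs. Its signal was 145395, 133099 and 134276 in VECs against 123803, 108104 and 118967 in LECs. Both populations were bright, and the groups did not overlap although they lay close together. The difference was -0.46 (SE 0.07, n = 3; 95% confidence interval -0.64 to -0.28; 1.38-fold lower in LECs, adjusted p = 0.0022 by limma). Without any scaling between arrays the difference was -0.24 and no longer passed (adjusted p = 0.10).

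The EMILIN genes also went opposite ways. Emilin1 encodes an elastic fiber protein that binds integrins alpha 4 beta 1 and alpha 9 beta 1 and restrains processing of the TGF-beta precursor. It gave 64.5, 57.2 and 45.6 intensity units in VECs against 741, 557 and 767 in LECs. All VEC signals were low but above background, and all LEC signals exceeded their array's 75th percentile. The difference was 3.40 (SE 0.17, n = 3; 10.6-fold, adjusted p = 1.5e-05 by limma), or 2.41 with normexp correction, and 418 genes rose further. Fibroblasts are another source of Emilin1 transcript. The summed normalized signal of 6 fibroblast markers was 0.899 to 1.52 on VEC and 2.18 to 2.95 on LEC arrays, 3 of the 4 tested were higher in LECs (Dcn, a matrix proteoglycan, by 6.33-fold, adjusted p = 0.0022, with a difference of 1.71 under normexp in place of 2.66), and Pdgfra was above background on 1 of 3 VEC arrays and on no LEC array. Their part in the Emilin1 difference was not tested.

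Emilin2 encodes a related matrix glycoprotein that can trigger death receptor signaling. Its signal was 137, 113 and 128 in VECs against 32.3, 16.6 and 22.8 in LECs, where LEC 7 was not well above background. The groups did not overlap, and 2 of 3 LEC arrays measured the gene. The measured difference was -2.67 (SE 0.20, n = 3; 6.38-fold, adjusted p = 8.5e-05 by limma), or at least 5.56-fold with dim LEC signals raised to their array's lowest signal well above background. With normexp correction it was -1.34 and with the row of the slide as a block -2.24, and in both settings it passed the test but no longer exceeded 5-fold.

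Of the rest of the EMI domain family, Emid1, a matrix protein with a collagenous stretch, was 6.49-fold higher in LECs on its brighter probe (adjusted p = 5.9e-06) and 9.90-fold on the other. Col26a1, a collagen with an EMI domain, was too dim on its brighter probe to be measured on the VEC arrays. On each LEC array that probe was above background, at least 14.0-fold higher there (adjusted p = 1.3e-06). The other Col26a1 probe was above background on all 3 VEC arrays and on 2 of 3 LEC arrays. It did not pass (difference 0.56, adjusted p = 0.10), so the probes of that gene disagree in detection and in size of difference. The size on the brighter probe also moved with the processing, from a measured 6.01 to 2.17 with normexp, 3.81 with signals raised to each array's floor and 3.28 as a mean of both probes, and the values with normexp and over both probes are below the bound given. Emilin3 had a difference of 0.54 (adjusted p = 0.041) that was lost in 11 of 22 alternatives, and its other probe had one of -0.42 (adjusted p = 0.086). In all, 5 of 7 EMI domain genes were higher in LECs and Mmrn2 and Emilin2 were lower, where 34.9% and 32.0% of all genes were. Those 5 include Emilin3, with its unstable call, and Col26a1, whose brighter probe was tested through its LEC signal alone.

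**Figure D2:**
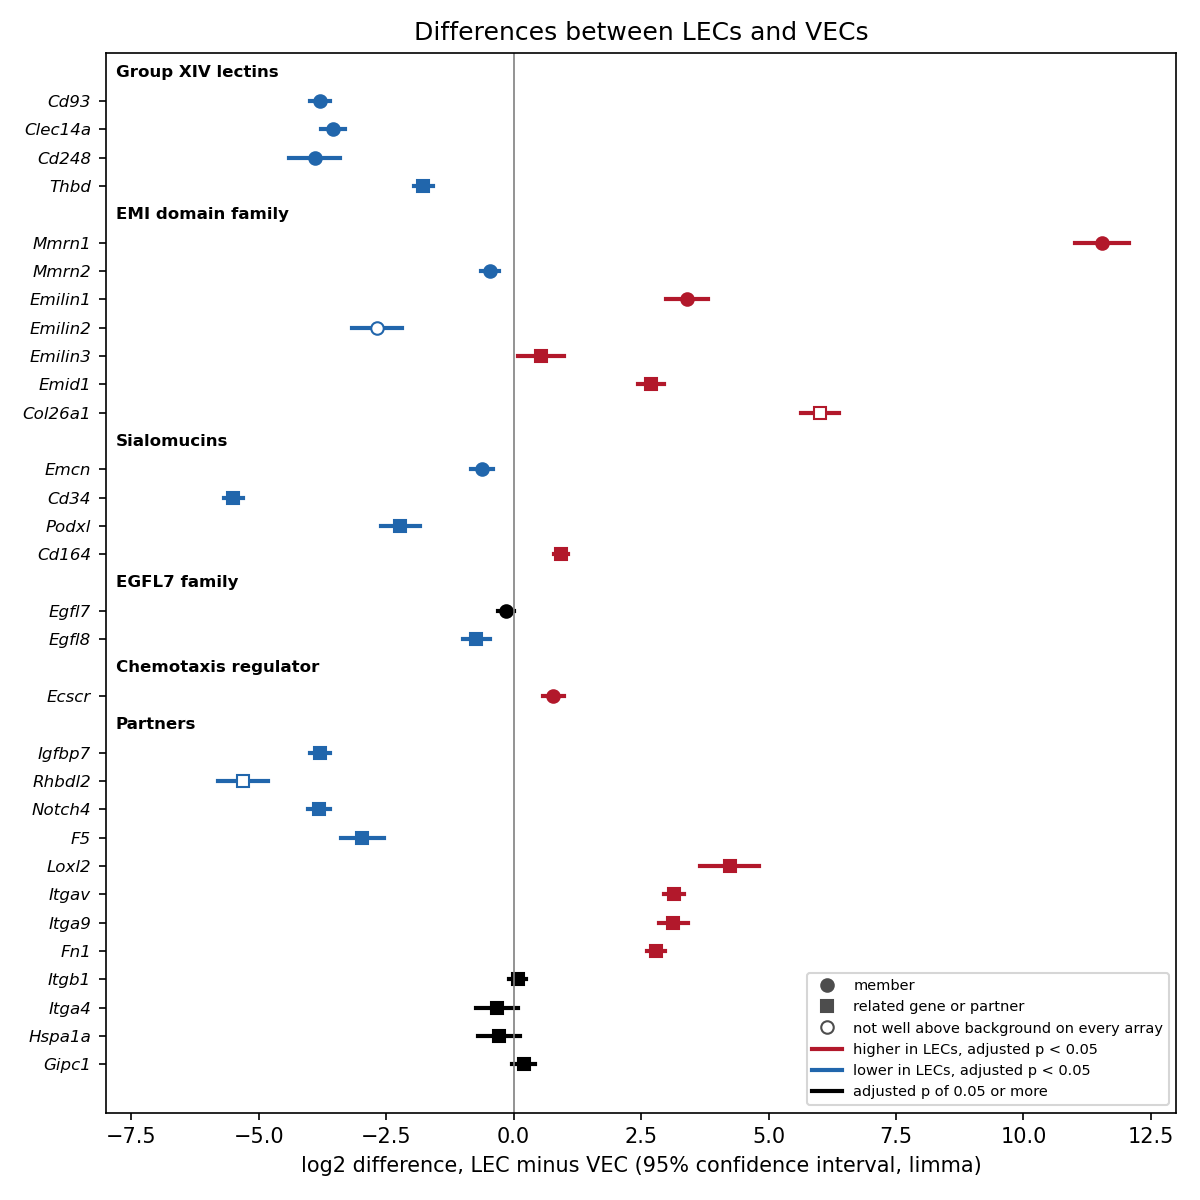
Log2 difference, LEC minus VEC, with its 95% confidence interval from limma (n = 3 arrays per population), for the 10 genes (circles), their relatives and named partners (squares), where red is higher in LECs, blue lower, black not passed, and open symbols mark probes not well above background on every array. The group XIV lectins lie between -3.90 and -1.77, while the EMI domain family runs from -2.67 for Emilin2 to 11.54 for Mmrn1.

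Emcn, Egfl7 and Ecscr differed by less than 2-fold. Emcn encodes endomucin, a sialomucin of capillary and venous endothelium that limits leukocyte adhesion. Its signal was 64732, 59859 and 57713 in VECs against 50233, 40334 and 48178 in LECs. Both populations were bright and did not overlap. The difference was -0.63 (SE 0.09, n = 3; 95% confidence interval -0.84 to -0.41; 1.54-fold lower in LECs, adjusted p = 0.0013 by limma).

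Of the other sialomucin genes of the endothelial surface, 3 were tested. Cd34 was 45.1-fold lower in LECs (adjusted p = 4.9e-07 by limma; 26.4-fold on its other probe), and Podxl, which encodes podocalyxin, was 4.66-fold lower (adjusted p = 6.7e-05). Cd164 was 1.90-fold higher (adjusted p = 4.0e-05). Podxl2 stayed below that level on every array. Thus 3 of the 4 tested sialomucin genes were lower in LECs, where 32.0% of all genes were, Emcn being the one with the smallest difference among those 3.

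Egfl7 encodes a secreted endothelial protein that associates with fibronectin and elastic fibers, hinders lysyl oxidases and modulates Notch signaling. It gave 159729, 153964 and 158198 intensity units in VECs against 178014, 148406 and 172071 in LECs. These unscaled signals overlapped, whereas after scaling the VEC values (8.72 to 8.85) lay just above the LEC values (8.61 to 8.69). The difference was -0.15 (SE 0.07, n = 3; 95% confidence interval -0.32 to 0.01; adjusted p = 0.090 by limma), and without scaling it was 0.07, so its direction was not settled. Its paralog Egfl8 was 1.66-fold lower in LECs (adjusted p = 0.0015; 2.11-fold on the other probe).

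Ecscr encodes a small transmembrane regulator of endothelial chemotaxis that binds filamin A. Its first probe gave 13131, 12479 and 13207 intensity units in VECs against 29352, 23532 and 25297 in LECs. The second probe gave 5167, 4876 and 5301 in VECs against 12572, 10019 and 12092 in LECs. On both probes every LEC array exceeded every VEC array, and the LEC arrays spread more widely. The differences were 0.78 (SE 0.08, n = 3; 1.71-fold, adjusted p = 3.8e-04 by limma) and 0.94 (SE 0.07, n = 3; 1.92-fold, adjusted p = 6.4e-05). Pan-endothelial markers did not all rise with it: of 7, 1 rose toward LECs, 5 fell and 1 did not pass.

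**Figure D3:**
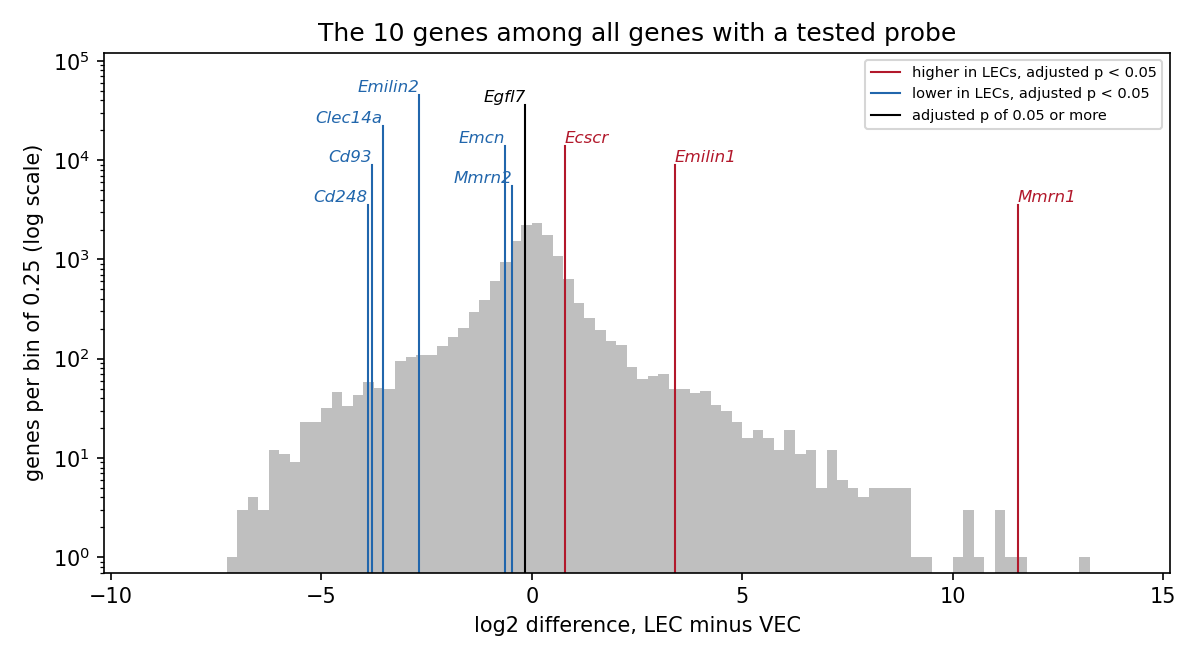
Histogram of the log2 difference, LEC minus VEC, over 14971 genes (grey, number of genes per bin of 0.25 on a log scale), with a vertical line for each of the 10 genes, red if higher in LECs, blue if lower and black if not passed; line heights only separate the names. Mmrn1 lies at 11.54 at the far edge of the distribution, Cd93, Cd248, Clec14a and Emilin2 in its lower tail, and Mmrn2, Emcn and Egfl7 near its center.

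Partners of the 10 genes, which are their binding partners, proteases, integrins and downstream receptors, were taken as a list, also drawn up with earlier results known. All 28 were tested: 9 rose toward LECs, 15 fell and 4 did not pass, with a median difference of -0.33, where 34.9% of all genes were higher and 32.0% lower with a median of 0.02. For the lectin receptors, Igfbp7, a secreted vessel matrix protein that binds CD93, was lower in LECs as Cd93 was, at a normalized log2 signal of 8.97, 9.02 and 8.84 in VECs and 5.18, 5.22 and 5.05 in LECs (13.8-fold, adjusted p = 8.0e-07 by limma). Rhbdl2, the rhomboid protease that sheds the CLEC14A ectodomain, was at least 32.3-fold lower (adjusted p = 5.4e-06), with 2 of 3 LEC arrays above background. With normexp correction its difference was -3.24 in place of -5.30, a smaller fold than that bound, which applies to the scanner software's signals. Gipc1 and Hspa1a, an adaptor of CD93 and a CLEC14A-binding chaperone, did not pass (differences 0.20 and -0.28, adjusted p = 0.10 and 0.18).

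For the multimerins and EMILINs, F5, the coagulation factor V that multimerin-1 carries, was 7.81-fold lower in LECs (adjusted p = 2.8e-05 by limma), opposite to Mmrn1, with a difference of -2.16 under normexp in place of -2.97. Integrin subunits moved unevenly: Itga9 was 8.78-fold higher in LECs (adjusted p = 5.0e-06) and Itgav 8.83-fold higher (adjusted p = 1.3e-06). Itgb3 was 1.95-fold higher (adjusted p = 0.0025 by limma), whereas Itga5 was 3.83-fold lower (adjusted p = 4.1e-06). Neither Itga4 nor Itgb1 passed (differences -0.33 and 0.08, adjusted p = 0.13 and 0.37). Of the EMILIN1 receptors, alpha 9 transcript thus rose beside Emilin1, while the alpha 4 and beta 1 transcripts gave no call.

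For EGFL7, Notch4, an endothelial Notch receptor, was 14.1-fold lower in LECs (adjusted p = 1.0e-06 by limma). Loxl2, a collagen and elastin cross-linking enzyme, was 18.9-fold higher (adjusted p = 2.5e-05; 13.9-fold on its other probe). Its LEC values were 4.49, 4.20 and 3.57 on the normalized log2 scale and its VEC values 0.00, -0.17 and -0.29, which did not overlap. Lox, which encodes lysyl oxidase, went the other way and was 4.18-fold lower in LECs (adjusted p = 1.1e-05). Its other probe was at least 1.69-fold lower, with no LEC array above background. Fn1, which encodes fibronectin, was higher on all 3 of its probes, by 6.95-fold to 7.85-fold (adjusted p = 1.4e-06 for the brightest).

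The samples shared 1 slide, and its rows only partly followed the populations: row 1 held all VEC arrays and LEC 6, and row 2 held LEC 7 and 8. With the row as a block, a fit in which the contrast within a row rests on LEC 6 alone, Cd93 differed by -3.69, Clec14a by -3.36, Cd248 by -3.81, Mmrn1 by 11.58, Emilin1 by 3.47, Mmrn2 by -0.43, Emcn by -0.55 and the Ecscr probes by 0.91 and 1.02. All of these calls were kept, and Egfl7 again did not pass (-0.10, adjusted p = 0.42). Leaving out each array in turn moved Mmrn1 between 11.40 and 11.79, Cd93 between -3.86 and -3.74, and Mmrn2 between -0.52 and -0.43.

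**Figure D4:**
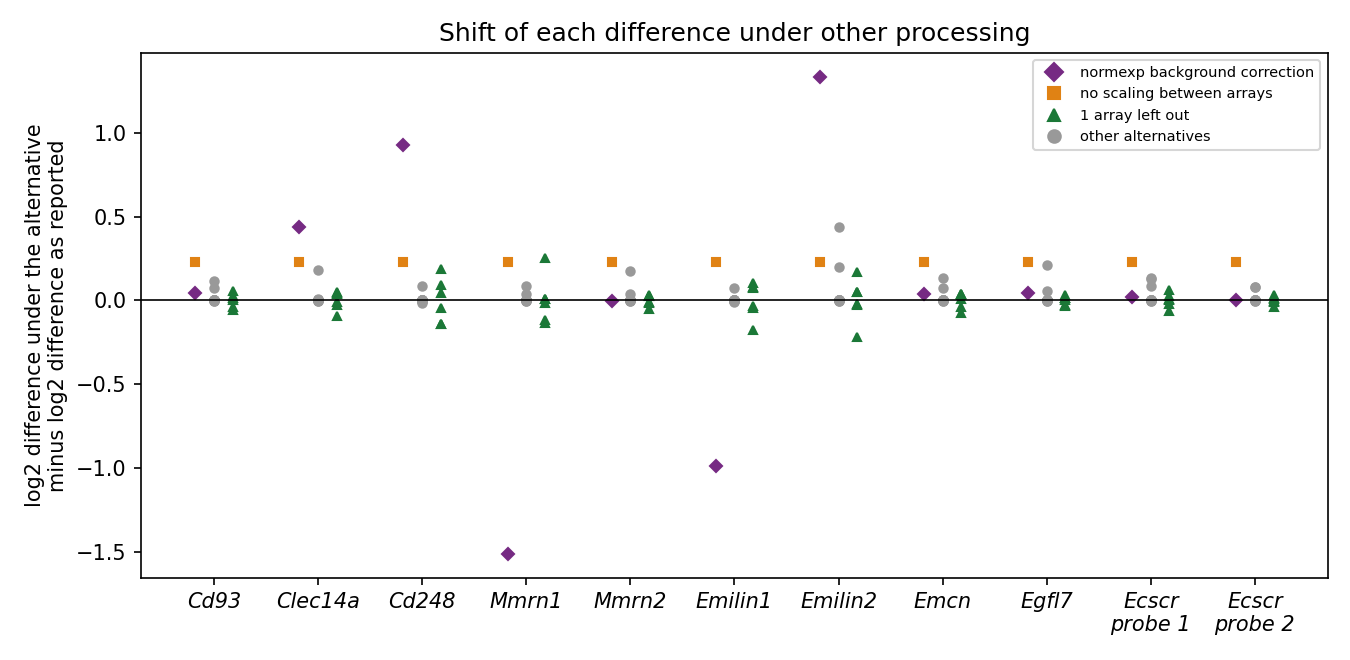
Shift of each probe's log2 difference under other processing (alternative minus reported value, y axis) for the 11 probes, with normexp background correction as diamonds, no scaling between arrays as squares, each array left out as triangles and all other alternatives as circles. Normexp moved the probes with a dim population, Mmrn1, Emilin1, Emilin2 and Cd248, most, and no scaling raised every difference by the same amount.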

How the data were processed

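The authors deposited, per the file headers, the intensity of every spot as Agilent Feature Extraction 12.0.3.1 gave it after background subtraction, without scaling between arrays, and a table of log2 values. On each array, at least 99.9% of the deposited log2 values equalled the log2 intensity less a single offset (tolerance 0.01), with array medians of -3.19 to -3.13 and no centering of genes, and this table was one of the alternatives.

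From the intensities, outlier spots (97 to 122 per array) were set missing, log2 was taken, spots of 1 probe were averaged and each array's 75th percentile was subtracted. Precision is limited by the 3 arrays per population. Probes that were well above background throughout either population (33776) were tested two-sided with lmFit and eBayes of limma 3.58.1 (R 4.3.3), with Benjamini-Hochberg adjusted p under 0.05, and the fit was tested on simulated data. RefSeq accessions named 32994 probes (58.3%). A gene was represented by its brightest tested probe. Where an array of the dimmer population was not well above background, "at least" folds set the dim side to the higher of its signal and that array's lowest signal well above background. The GRCm38.p6 promoter table was used for sequences and the array itself was designed on an older build, so probe positions are not given.

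Named were the 10 genes with every probe, their families, the 4 largest passing partners per direction, the partners that did not pass, and markers that bear on a result. Lox was named beside Loxl2, and Itga5 and Itgb3 beside the other integrin subunits, and none of these was put through the alternatives. Of the markers, only Pecam1, Prox1, Flt1, Dcn, Pdgfrb and Pf4 were put through them. The members and lists were chosen with earlier results of these data known. The 5-fold counts, which use measured folds, were added after seeing the data. Alternatives were normexp (on median signals, since mean signals were not among the columns used), other scalings and none, other filters, retained outlier spots, a floor on signals, the methods' one-way test, a variance trend with intensity, the deposited table, slide row as a block, the mean of a gene's probes, stricter thresholds and each array left out. A comparison of protein sequences was planned and not run, since no protein table was used here.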

Additional observations from a re-analysis of the deposited data

How the results depend on the processing

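Among the 11 probes and the other named genes that were put through the alternatives, no difference that passed changed direction. Of 240 values of the 11 probes under the alternatives, 235 kept their call and 5 lost it: Mmrn2 without scaling (-0.24, adjusted p = 0.10), and Emcn, Mmrn2 and both Ecscr probes where a 2-fold difference was also required. That requirement lowered the counts among the 10 genes from 3 to 2 higher and from 6 to 4 lower, and among the partners to 4 higher and 7 lower. The 4 genes over 5-fold lower became 3 with normexp, with the slide row as a block, and with only probes well above background on all arrays, in each case without Emilin2, which has no value in the last setting. Normexp moved 9 of the differences put through the alternatives by more than 1.5 times in fold, each toward 0: Mmrn1 to 10.03, Emilin1 to 2.41, Cd248 to -2.97, Emilin2 to -1.34, Col26a1 to 2.17, Rhbdl2 to -3.24, F5 to -2.16, Dcn to 1.71 and Pf4 to 0.92. All 9 still passed. Without scaling the median of all genes was 0.24 in place of 0.02, and Egfl7, which had not passed, turned from -0.15 to 0.07. Among partners, Gipc1 passed without scaling (0.42, adjusted p = 0.031), Itga4 without VEC 3 (-0.49, adjusted p = 0.025) and Hspa1a without VEC 4 (-0.44, adjusted p = 0.037). The labels do not say whether VEC and LEC samples were sorted from the same mice, and the replicate numbers differ, so no paired analysis was run.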
